A study of Bombyx mori with 2 samples.

Results

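Head-to-head pairs of spliced loci were examined in RNA from wing buds of the silkworm *Bombyx mori*: neighbouring transcription units that point away from each other, with their 5′ ends facing across a gap of 0 to 1000 bases. Transcripts assembled from both libraries were joined into a locus if any exon base was in common on one strand (1 base sufficed), and an unstranded transcript joined a locus of either strand. A locus was kept where it held a transcript of 2 or more exons in each library and lay on 1 strand, which left 10273 of 25992 loci. A pair was a member where the left locus was on the minus strand, the right locus on the plus strand and the gap between their spans was 0 to 1000 bases. This gave 362 pairs, or 724 loci, of 9682 pairs of kept loci adjacent on a scaffold. The rule used position, strand and splicing in both assemblies, and set no limit on level. A transcript is assembled only where reads cover it, so level can bear on which loci were kept and where they end. The part of this in the levels below was not tested.

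The hindwing bud library came from hind wing buds (the third thoracic segment) and the forewing bud library from fore wing buds (the second thoracic segment), both of larvae of the fourth instar of the Daizo strain. Each library pooled 80 whole buds, and there was 1 library for each wing bud. There were therefore no replicates, no test between the wing buds was possible, and every difference below is between these libraries only. The kit did not mark strand, so the strand of each transcript comes from its splice sites. In RNA from whole buds, a lower level can come from fewer cells of a type or from less RNA per cell, which cannot be told apart. The buds could not be checked against marker genes, since the transcripts carry no gene names, and each pair is therefore given by position. Positions are those of the deposited assemblies, counted from 1 on scaffolds named nscaf or scaffold. For the genome build, the sources used here give no name.

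In animal genomes, genes that face head-to-head over a short gap can share a bidirectional promoter, a stretch of open DNA from which RNA polymerase starts in both directions. Transcription from such a promoter begins at a separate start site for each gene, so the levels of the partners need not be equal. Partners with a shared promoter are often studied for how far they are regulated together, for example between tissues. In the silkworm, the forewing and hindwing buds are serial homologues that grow as folded epithelia inside the larva, and the Hox protein Ultrabithorax distinguishes the hindwing segment.

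The deposited bounds of lone single-exon transcripts put the depth at about 43527500 fragments for hindwing buds and 37193500 for forewing buds, a ratio of 1.17. Head-to-head loci held 8.15% of the fragments per 1000000 (FPM) in hindwing buds and 8.07% in forewing buds. A median of 1719 fragments lay behind a head-to-head locus in hindwing buds and of 1423 in forewing buds, and 1 FPM stood for 43.5 and 37.2 fragments in these libraries. Between loci, levels are given per length, as the sum over transcripts of the midpoint of the deposited confidence interval (in FPKM, fragments per kilobase and per 1000000 fragments). Between the wing buds, each midpoint was multiplied by the assembled length in kilobases and summed, which gives FPM. Intervals given with FPM come from the deposited bounds, and take in the counting and assignment error of a single library.

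Of 2311 adjacent pairs that faced head-to-head at any distance, 362 (15.7%) had a gap of 0 to 1000 bases. The same limit took 280 of 2313 tail-to-tail pairs (12.1%), whose 3′ ends face each other, and 1533 of 5058 same-strand pairs (30.3%). Head-to-head loci seldom overlapped, with 83 overlapping pairs against 475 among the tail-to-tail pairs. A further 846 head-to-head pairs had gaps of 1001 to 5000 bases, 494 had gaps up to 20000 bases and 526 had wider gaps. The members lay on 115 of the 591 scaffolds that held a kept locus. The scaffolds nscaf2674, nscaf2855 and nscaf2888 held the most, with 14, 13 and 12 pairs.

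The gap was spread almost evenly over the range that the rule allowed. Its median was 549.5 bases in head-to-head pairs, with quartiles of 284.5 and 784 bases, and the narrowest gap was 8 bases. Gaps under 50 bases were found in 3 pairs and gaps under 100 bases in 25 pairs (6.91%, 95% Wilson interval 4.72 to 9.996%). From 100 to 2000 bases, each bin of 100 bases held between 31 and 47 head-to-head pairs, so that the limit of 1000 bases did not fall at a break in the distribution. The other orientations had narrower gaps, with medians of 460 bases in tail-to-tail pairs and 148 bases in same-strand pairs. In same-strand pairs 911 of 1533 gaps were 250 bases or less, and whether such neighbours are pieces of 1 gene was not tested.

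**Figure D1:**
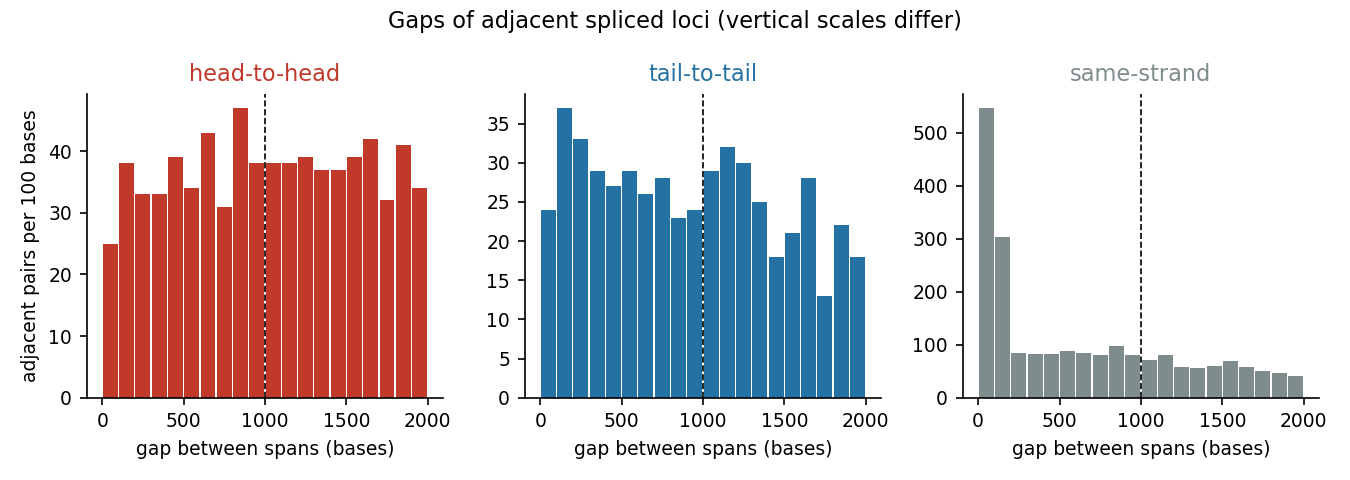
Number of adjacent pairs of spliced loci (vertical axis, pairs in each bin of 100 bases) by gap between their spans (horizontal axis, bases) in head-to-head, tail-to-tail and same-strand pairs, with the limit of 1000 bases as a dashed line and a separate vertical scale in each panel. Head-to-head pairs number 25 in the first bin and 31 to 47 in every later bin, while same-strand pairs pile up below 200 bases.

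Pairs at both limits of the gap are given as examples. On nscaf2828 the left locus (bases 4610738 to 4623334) and the right locus (4623343 to 4648650) were 8 bases apart once both assemblies were joined, but 55 bases apart in the hindwing assembly and 66 in the forewing assembly. On nscaf2511 the gap between the left locus, which ended at 510893, and the right locus, which began at 510919, was 25 bases. The next, on nscaf2809, was 49 bases between 58883 and 58933. In these narrow pairs the libraries disagreed on the gap, which was 410 bases in the hindwing and 156 in the forewing assembly on nscaf2511, and 563 and 51 bases on nscaf2809. Just inside the limit were a pair on nscaf3072 with a gap of 1000 bases (2553682 to 2554683) and a pair on nscaf2986 with a gap of 999 bases (2530764 to 2531764). The gap on nscaf3072 held 2 other transcripts, and the gap on nscaf2986 was 1845 bases in the hindwing assembly. Just outside the limit were a pair on nscaf2828 at 1002 bases (2269488 to 2270491) and a pair on nscaf2575 at 1004 bases (617460 to 618465).

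The pairs on either side of the limit had unlike levels. The pair on nscaf3072 was weakly detected, with 1.33 FPM at its left locus in hindwing buds and 1.49 in forewing buds, and 2.67 and 2.80 FPM at its right locus. The pair on nscaf2986 had 58.7 FPM at its left locus in hindwing buds against 73.6 in forewing buds, and 8.87 against 8.76 at its right locus. Outside the limit, the left locus of the pair on nscaf2828 had 116 FPM in hindwing buds and 113 in forewing buds. Its right locus had 86.1 FPM in hindwing buds and 98.7 in forewing buds. The pair on nscaf2575 had 29.3 FPM in hindwing buds and 27.6 in forewing buds at its left locus, and 9.11 and 12.0 FPM at its right locus.

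The width of a gap depended on the library in which it was measured. Within each library's own assembly the median gap of the 362 pairs was 630 bases in hindwing buds and 670 bases in forewing buds, both wider than the joined gap by construction. The median difference between the libraries was 99.5 bases, and the gaps agreed within 50 bases in 129 pairs (35.6%, 30.9 to 40.7%). The hindwing gap was the narrower in 216 pairs and the forewing gap in 140. The hindwing library was the deeper one, and the part of depth in this was not tested. In both assemblies alone the gap was 1000 bases or less in 287 pairs (79.3%), while 34 pairs were wider in the hindwing and 48 in the forewing assembly. Another transcript lay in the gap of 6 pairs only (1.66%), and 3 of these held a spliced transcript.

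At short distances the 5′ ends, which face the gap, were placed less alike by the assemblies than the 5′ ends of other loci. They lay within 50 bases of each other in 385 of 724 head-to-head loci (53.2%, 49.5 to 56.8%), against 64.8% of loci in tail-to-tail pairs and 63.0% of all kept loci. At wider distances the order was reversed. Within 500 bases lay the 5′ ends of 94.2% of head-to-head loci, 93.9% of tail-to-tail loci and 90.9% of all kept loci. The 3′ ends, which face away from the gap, agreed within 50 bases in 60.8% of head-to-head loci and 62.1% of all kept loci. The first splice donor showed the opposite order to the 5′ ends within 50 bases. At least 1 first donor was shared between the assemblies in 95.3% of head-to-head loci (93.5 to 96.6%), against 91.4% of all kept loci. In tail-to-tail pairs the share was 93.8% (91.4 to 95.5%), an interval that overlaps that of head-to-head loci. The most abundant spliced transcript of each library began with the same donor in 85.6% of head-to-head loci and in 80.6% of all kept loci. Starts from 2 or more first donors were assembled for 26.0% of head-to-head loci in hindwing buds and 21.4% in forewing buds, and for 24.4% and 20.5% of all kept loci. These intervals count loci, which are not independent replicates, and no test was made. The rule took each joined gap from the outermost 5′ ends of either assembly, and the part of this in how the 5′ ends agreed was not tested.

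**Figure D2:**
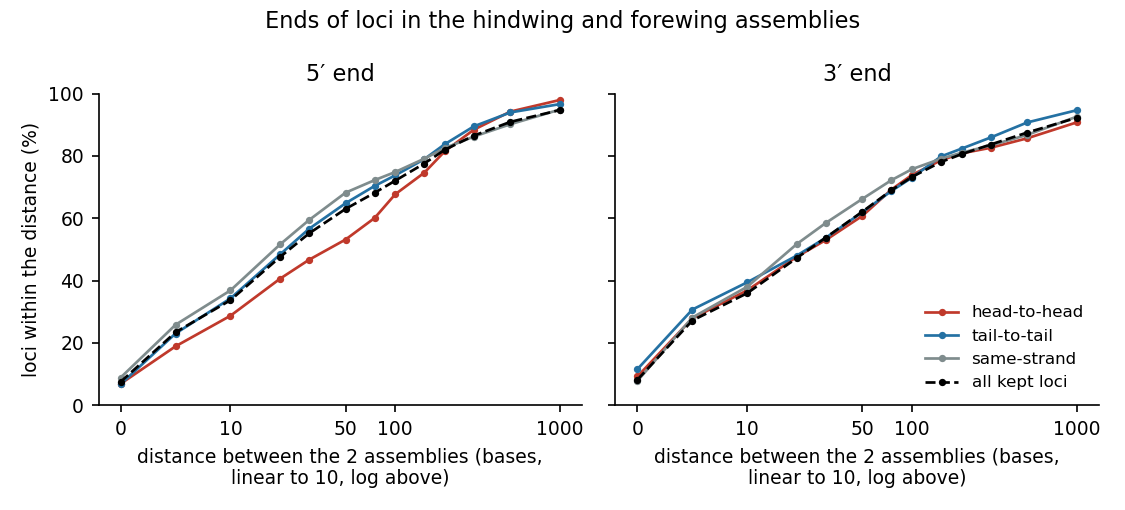
Share of loci (vertical axis, percent) whose 5′ end (left) or 3′ end (right) differed by no more than a given distance between the hindwing and forewing assemblies (horizontal axis, bases) in head-to-head, tail-to-tail and same-strand pairs with gaps of 0 to 1000 bases and in all kept loci. The head-to-head line runs lowest for 5′ ends at distances of 5 to 150 bases, is highest at 500 and 1000 bases, and lies with the others for 3′ ends.

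The exon structure of head-to-head loci also differed at the 5′ side. The first exon of the most abundant spliced transcript had a median of 316 bases in hindwing buds and 314.5 in forewing buds, against 238 and 230 bases over all kept loci. The first intron was shorter, with medians of 415.5 bases in hindwing buds and 423 in forewing buds against 729 and 720 bases over all kept loci. Loci in tail-to-tail pairs lay between. Their first exons had medians of 272 bases in hindwing and 250.5 in forewing buds, and their first introns 638.5 and 643 bases. The body of head-to-head loci was alike, with a median span of 6882 bases against 7281 over all kept loci and a median of 5 exons in both sets. Loci with no more than 2 exons in hindwing buds made up 12.8% of the head-to-head set and 18.5% of all kept loci. Around the pairs, an outer neighbour lay within 1000 bases on 1 side in 114 pairs and on both sides in 18 pairs.

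Head-to-head loci were well expressed in both wing buds. Their median level was 18.1 FPKM by the interval midpoint in hindwing buds (quartiles 8.67 and 38.9) and 18.0 FPKM in forewing buds (8.29 and 38.2). All kept loci had medians of 12.6 FPKM in hindwing buds and 12.3 FPKM in forewing buds. The levels of loci in tail-to-tail pairs were close to those of head-to-head loci, at 17.7 and 16.9 FPKM, and same-strand loci were lower, at 9.47 and 9.38 FPKM. Levels of 100 FPKM or more were reached by 58 head-to-head loci (8.01%) in hindwing buds and 59 (8.15%) in forewing buds, against 6.02% and 6.12% of all kept loci. Under 1 FPKM lay 2 head-to-head loci in hindwing buds and 4 in forewing buds. Among head-to-head pairs the median level was 17.9 FPKM for gaps of 0 to 1000 bases, 16.9 for 1001 to 5000, 15.1 for 5001 to 20000 and 11.2 for wider gaps, and 11.2 for overlapping pairs. Within 1000 bases it followed no such order, at 15.3 FPKM up to 250 bases, 21.7 for 251 to 500 and 18.0 both for 501 to 750 and for 751 to 1000.

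**Figure D3:**
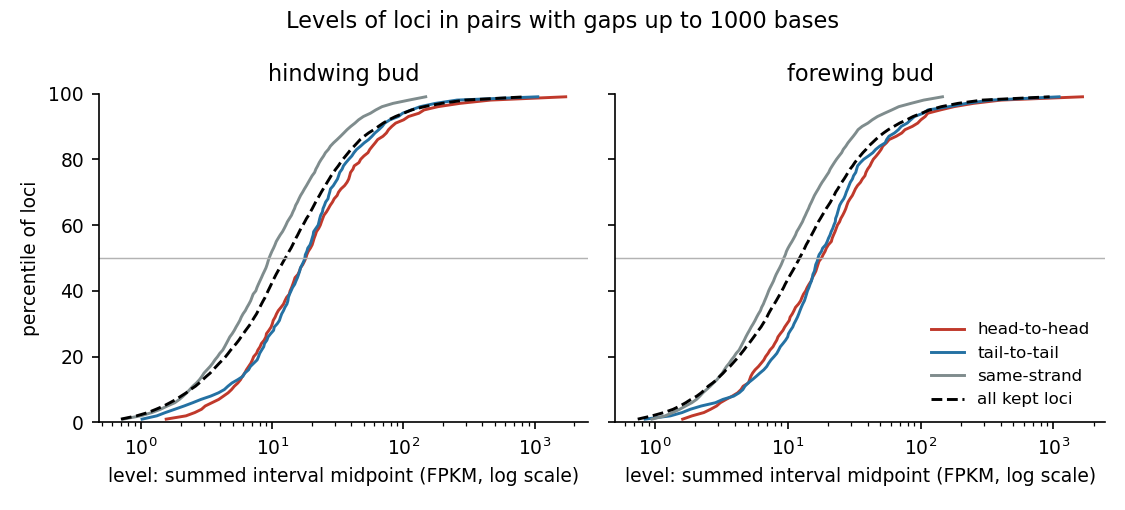
Percentile of loci (vertical axis, the 1st to the 99th) by level (horizontal axis, summed interval midpoint in FPKM, log scale) in hindwing buds (left) and forewing buds (right), for head-to-head, tail-to-tail and same-strand pairs with gaps of 0 to 1000 bases and all kept loci. The head-to-head line crosses the median at 18.1 FPKM in hindwing buds and 18.0 in forewing buds, right of the line for all kept loci in both panels.

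The partners of a pair had unequal levels. On the scale of FPKM + 1, used for all folds and correlations between partners' levels, the higher partner exceeded the lower by a median of 2.58-fold in hindwing buds and 2.57-fold in forewing buds, with median levels of 29.7 and 31.3 FPKM for the higher partner and 10.03 and 10.2 FPKM for the lower. The partners lay within 2-fold of each other in 135 pairs (37.3%) in hindwing buds and 141 pairs (39.0%) in forewing buds. A difference of 10-fold or more was found in 43 pairs in hindwing buds (11.9%) and 39 in forewing buds (10.8%). Tail-to-tail pairs were similar, with medians of 2.54-fold and 2.51-fold, and 13.6% and 14.6% of pairs at 10-fold or more. Same-strand partners were closer, with medians of 1.77-fold and 1.65-fold. In head-to-head pairs the same partner was the higher one in both libraries in 305 of 362 pairs (84.3%, 80.1 to 87.6%). Across head-to-head pairs, the log2 levels of left and right partner had a Pearson correlation of 0.13 in hindwing buds and 0.15 in forewing buds (n = 362 pairs, which share a library). In tail-to-tail pairs it was 0.03 in both libraries, and in same-strand pairs 0.45 in hindwing buds and 0.54 in forewing buds.

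The most unequal pairs joined a very abundant locus to one of ordinary level. On nscaf2674 the right locus (614753 to 618341, 2 exons) had 7495 FPKM by the midpoint in hindwing buds and 9881 in forewing buds, the highest level of any member. Its left partner (599403 to 613771), 981 bases away, had 7.89 FPKM in hindwing buds and 6.79 in forewing buds. On nscaf2883 the left locus (1237207 to 1238820) had 3735 FPKM in hindwing buds and 3498 in forewing buds, and its partner across 110 bases (1238931 to 1253199) had 3.87 and 10.9 FPKM. On nscaf2993 the right locus (6747840 to 6750594) had 2935 FPKM in hindwing buds and 2977 in forewing buds, and its partner (6743989 to 6747036) had 8.56 and 7.77 FPKM. In all 3 pairs the abundant partner was the same one in both wing buds.

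High levels on both sides of a gap were rare in every orientation. Both partners reached 100 FPKM in 2 head-to-head pairs in hindwing buds (0.552%) and 3 in forewing buds (0.829%). The shares in hindwing and forewing buds were 0.357% and 0% in tail-to-tail pairs, and 0.913% and 0.718% in same-strand pairs. The head-to-head pair with the highest lower partner lay on nscaf2136 over a gap of 913 bases, where the left locus (111152 to 113593) had 3191 FPKM in hindwing buds and 3380 in forewing buds, and the right locus (114507 to 121391) had 301 and 300.3 FPKM. The next pair, on nscaf3075 over 92 bases, had 210 FPKM in hindwing buds and 230 in forewing buds at its short right locus (186259 to 186951). Its left locus (177886 to 186166) had 55.4 FPKM in hindwing buds and 198 in forewing buds, but 234 and 245 FPM, its mean assembled length being 4222 bases in the hindwing and 1240 in the forewing assembly. On nscaf2986 the left locus (2838050 to 2839192) had 3532 FPKM in hindwing buds and 2417 in forewing buds, and the right locus (2840158 to 2840956) had 113 and 97.0 FPKM.

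The share of head-to-head loci that differed between the wing buds was close to or below that of all kept loci. Of the 724 loci, 720 had at least 1 FPM in a library, and 20 of these (2.78%, 1.81 to 4.25%) differed 2-fold or more on the scale of FPM + 1, against 3.61% of 10029 kept loci with the same minimum. They were higher in hindwing buds at 11 loci (1.53%) against 1.75% of kept loci, and higher in forewing buds at 9 loci (1.25%) against 1.85%. At 1.5-fold, 51 head-to-head loci differed (7.08%, 5.43 to 9.19%) against 10.8% of kept loci. Loci in tail-to-tail pairs had shares close to those of head-to-head loci, at 2.89% for 2-fold and 7.59% for 1.5-fold. Of the 51 head-to-head loci, 27 (3.75%) were higher in hindwing buds and 24 (3.33%) in forewing buds, against 5.01% and 5.76% of kept loci. The deposited intervals were apart at 231 head-to-head loci (32.1%), against 32.1% of kept loci, with 115 higher in hindwing buds (16.0% against 15.8%) and 116 in forewing buds (16.1% against 16.3%). The median fold between the wing buds was 1.10 in head-to-head loci and 1.12 in all kept loci. Head-to-head loci also had more fragments, with a median of 39.5 FPM in hindwing buds and 38.3 in forewing buds against 25.0 and 25.1 for all kept loci, and the part of this in the smaller share at 1.5-fold was not tested.

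Most 2-fold differences went with a difference in assembled length. Of the 20 loci, 17 had mean assembled lengths that differed over 1.2 times between the libraries, against 240 of 362 such loci among all kept loci. All 11 loci higher in hindwing buds were assembled longer there, against 129 of 176 of all kept loci. Of the 9 higher in forewing buds, 7 were longer in that assembly, against 143 of 186. The lengths of the 20 loci differed by a median of 3.10-fold, against 1.72-fold over the 362 kept loci that differed 2-fold and 1.11-fold over the 720 head-to-head loci. Among 434 head-to-head loci with lengths within 1.2 times, 3 differed 2-fold (0.691%, 0.235 to 2.01%), against 1.97% of such kept loci. A 2-fold difference on 1 side both by FPM and by the midpoint per length was found at 4 of 720 head-to-head loci (0.556%, 0.216 to 1.42%), against 1.75% of kept loci. At 8 of the 20 loci the midpoint per length lay on the other side or was equal, against 52 of the 362. Measured by the midpoint alone, 9.86% of head-to-head loci and 9.93% of kept loci differed 2-fold, and by deposited FPKM 11.1% and 12%.

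All 4 loci that differed 2-fold by both measures were higher in forewing buds, and each was the left locus of 2 exons in its pair. They were singled out after their values were seen. On nscaf2686 the left locus (413107 to 421386) had 17.7 FPM in hindwing buds (16.0 to 19.4) against 38.1 in forewing buds (35.2 to 41.0). Its partner across 819 bases (422206 to 428952) had 309 FPM in hindwing buds and 282 in forewing buds. On nscaf2887 the left locus (1332694 to 1335994) had 24.3 FPM in hindwing buds (22.2 to 26.3) against 53.7 in forewing buds (50.6 to 56.9), and its partner (1336630 to 1347309), 635 bases away, had 24.9 against 21.2 FPM. In both pairs the partner lay slightly on the hindwing side. On nscaf1690 the left locus (6289537 to 6290955) had 3.88 FPM in hindwing buds and 13.2 in forewing buds, while its partner (6291065 to 6309152) had 43.3 and 43.7 FPM. The last, on nscaf2855 (2471752 to 2472822), had 3.11 FPM in hindwing buds and 8.73 in forewing buds, and its partner (2473392 to 2474525) was under 1 FPM in both. Mean assembled lengths were within 1.2 times between the libraries at these loci except the one on nscaf1690.

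The loci with the largest ratios by FPM were higher in hindwing buds. On nscaf3075 the right locus (133381 to 137909) had 179 FPM in hindwing buds against 32.7 in forewing buds, with 86.2 and 50.5 FPKM by the midpoint and mean lengths of 2078 and 647 bases. Its partner across 57 bases (127746 to 133323) had 16.6 FPM in hindwing buds and 14.6 in forewing buds. On nscaf2829 the right locus (2038253 to 2041784) had 50.3 FPM in hindwing buds and 11.2 in forewing buds, but 20.3 and 18.2 FPKM by the midpoint. Its partner (2031100 to 2037683) had 131 FPM in both libraries. Both examples paired a locus that differed strongly in FPM with one that hardly differed.

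Across pairs, the ratios of the partners were weakly related, and the relation rested on the measure. Both loci had the minimum of 1 FPM in 358 of 362 pairs. Over these, log2((hindwing FPM + 1)/(forewing FPM + 1)) of the left and right locus had a Pearson correlation of 0.19 and a Spearman correlation of 0.17. By the midpoint per length the Pearson correlation was -0.01, and by deposited FPKM it was 0.00325. In tail-to-tail pairs the correlations by FPM were 0.12 (Pearson) and 0.25 (Spearman, n = 273), and in same-strand pairs 0.16 and 0.17 (n = 1451). Over all adjacent pairs that did not overlap they were 0.10 and 0.11 (n = 8681), and in head-to-head pairs with wider gaps 0.08 and 0.07 (n = 1812). The points of each correlation share both libraries and the values are descriptions without a test.

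**Figure D4:**
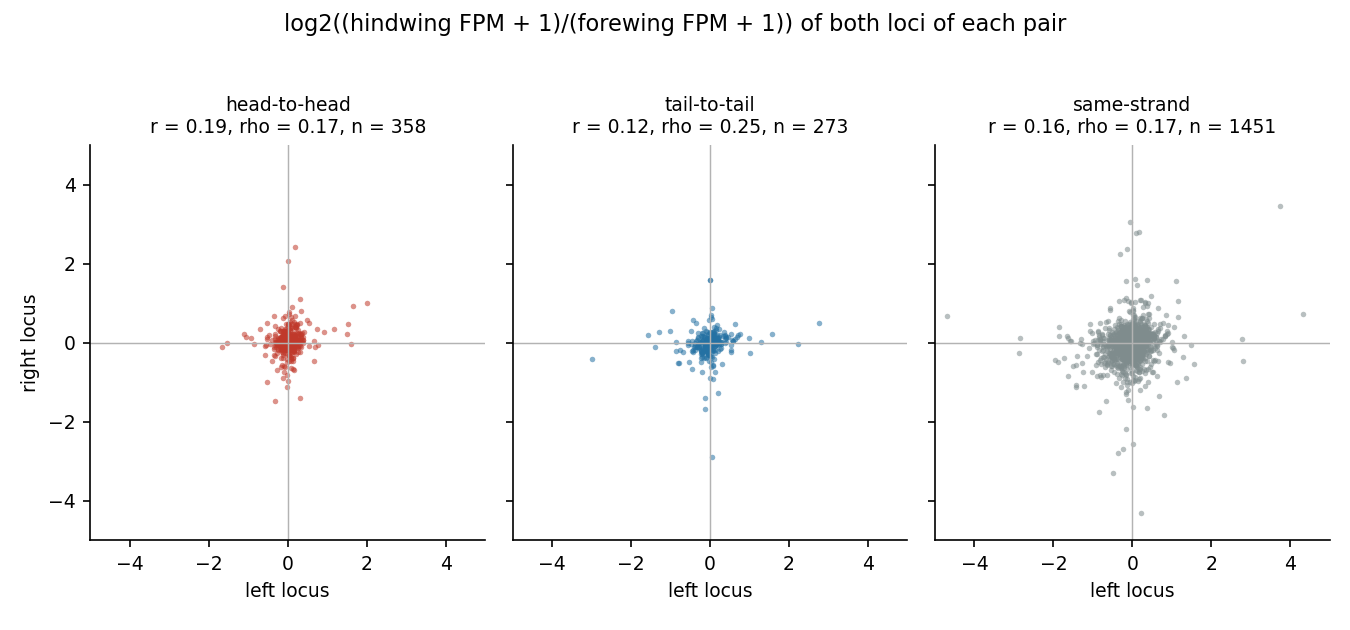
log2((hindwing FPM + 1)/(forewing FPM + 1)) of the right locus (vertical axis) against that of the left locus (horizontal axis), 1 point for each pair with a gap of 0 to 1000 bases, in head-to-head (n = 358), tail-to-tail (n = 273) and same-strand pairs (n = 1451). Most points lie near 0 on both axes, and large ratios of a head-to-head locus mostly lie along an axis, with the partner near 0.

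Counted by side, both partners of 208 of 358 head-to-head pairs (58.1%, 52.9 to 63.1%) had ratios on the same side. Of these, 123 pairs were higher in hindwing buds at both loci and 85 in forewing buds, and 150 pairs were on opposite sides. The share was 66.3% (60.5 to 71.6%) in tail-to-tail pairs, 55.8% in same-strand pairs and 53.3% (51.0 to 55.5%) in head-to-head pairs with wider gaps. By the midpoint per length it was 53.4% in head-to-head pairs. Narrower gaps did not go with closer ratios, as the Pearson correlation by FPM was 0.11 for gaps up to 250 bases (n = 78), 0.29 for 251 to 500 (n = 90), 0.25 for 501 to 750 (n = 85) and 0.12 for 751 to 1000 bases (n = 105). Where loci overlapped, the correlation was negative, at -0.32 in 79 head-to-head pairs and -0.48 in 473 tail-to-tail pairs, and without strand the reads of an overlap cannot be told apart.

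A 2-fold difference at a locus was seldom matched by its partner, in head-to-head pairs as in others. Of 358 head-to-head pairs, 1 passed 2-fold at both loci and 17 at 1 locus. The counts were 24 and 536 among 8681 adjacent pairs that did not overlap, and 0 and 16 among 273 tail-to-tail pairs. Of the 20 head-to-head loci past 2-fold, 14 had a partner on the same side, a count not made for other pairs. The median log2 ratio of the partners, in the direction of the 2-fold locus, was 0.15, with a range of -0.30 to 2.01. Both loci passed 2-fold in 1 pair only, on nscaf2823 over 631 bases (1807 in the hindwing assembly and 728 in the forewing assembly). Its left locus (3012014 to 3027152) had 151 FPM in hindwing buds (145 to 156) against 36.7 in forewing buds (34.3 to 39.2). Its right locus (3027784 to 3035189) had 53.5 FPM in hindwing buds (50.3 to 56.7) against 26.0 in forewing buds (22.9 to 29.1). Both were assembled longer in the hindwing library, at 5714 against 1860 bases and 4360 against 720 bases. By the midpoint per length the left locus had 26.4 FPKM in hindwing buds and 19.8 in forewing buds, while the right locus had 12.3 and 36.1, the opposite order.

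The deposited intervals of both partners were apart in 38 pairs. The partners lay on the same side in 22 pairs (6.15%, 4.09 to 9.13%), against 6.4% of all adjacent pairs and 6.42% of those that did not overlap, with 12 higher in hindwing buds and 10 in forewing buds. They lay on opposite sides in 16 pairs (4.47%, 2.77 to 7.14%), against 5.67% of all adjacent pairs and 4.3% of those that did not overlap. The share on opposite sides was 3.30% in tail-to-tail and 2.83% in same-strand pairs. In 12 of the 38 pairs both loci were assembled at lengths within 1.2 times, and of these 4 were on the same side and 8 on opposite sides. Among tail-to-tail pairs of like length with both intervals apart, 8 of 12 were on the same side and 4 on opposite sides. In such same-strand pairs the counts were 25 and 13 of 38. Over the 127 tested head-to-head pairs of like length, the Pearson correlation by FPM was 0.11 and 57.5% were on the same side.

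Pairs on the same side were ranked by the smaller absolute log2 ratio of their partners. Apart from the pair on nscaf2823, those ranked highest had at most 1 locus past 2-fold on the scale of FPM + 1. On nscaf2865 the left locus (5283652 to 5299820) had 98.0 FPM in hindwing buds and 30.3 in forewing buds and the right locus (5300801 to 5398223) 5.33 and 2.30 FPM, a difference over 2-fold in FPM that was 1.92-fold with 1 added to each value. On nscaf2575 the left locus (1808837 to 1813326) had 37.4 FPM in hindwing buds and 26.3 in forewing buds, and the right locus (1814019 to 1820151) 5.23 and 3.21 FPM. On the forewing side, the pair on nscaf2529 had 81.7 FPM in hindwing buds against 108 in forewing buds at its left locus (375523 to 394385) and 11.9 against 16.7 at its right locus (394470 to 397125). The pair on nscaf2943 had 78.3 FPM in hindwing buds against 98.1 in forewing buds at its left locus (1773960 to 1789286) and 35.0 against 99.5 at its right locus (1789859 to 1794737). The pair on nscaf2876 had 50.01 FPM in hindwing buds against 62.6 in forewing buds at its left locus (818238 to 821397) and 14.7 against 18.9 at its right locus (821509 to 869944). Intervals of both loci were apart in the 3 forewing pairs and in the hindwing pair on nscaf2865, and mean assembled length differed over 1.2 times at 1 or both loci of each of these pairs. By the midpoint per length, the left locus on nscaf2865 had 7.76 FPKM in hindwing buds and 16.5 in forewing buds, the opposite order. On nscaf2529 the left locus was also reversed, at 39.7 and 30.4 FPKM. The midpoint kept the order by FPM at both loci on nscaf2575, nscaf2943 and nscaf2876.

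Pairs on opposite sides were ranked in the same way, by the smaller absolute log2 ratio of their partners. The 3 ranked highest had no locus past 2-fold. Other pairs on opposite sides did hold such a locus, as on nscaf2686 and nscaf2887. On nscaf2865 the left locus of a pair with a gap of 223 bases (4899486 to 4901661) had 36.2 FPM in hindwing buds against 52.9 in forewing buds, and the right locus (4901885 to 4941652) had 8.85 against 5.98. On nscaf2930 the left locus (2341497 to 2343378) had 1579 FPM in hindwing buds against 1002 in forewing buds, and the right locus (2343619 to 2357218) 54.8 against 75.6. On nscaf2847 the left locus (1052343 to 1070375) had 50.5 FPM in hindwing buds against 83.3 in forewing buds, and the right locus (1070470 to 1074040) 11.7 against 8.95. The partners of these 3 pairs were separated by 223, 240 and 94 bases once both assemblies were joined, all narrower than the median joined gap. Within single assemblies the gap on nscaf2930 was 500 bases in the hindwing and 8998 in the forewing assembly. It was 223 and 417 bases on nscaf2865, and 94 and 532 bases on nscaf2847. By the midpoint per length, both loci on nscaf2865 were higher in hindwing buds, at 41.9 against 32.9 FPKM and 6.33 against 4.63. The right locus on nscaf2847 was nearly equal, at 12.05 FPKM in hindwing buds and 12.10 in forewing buds. The pair on nscaf2930 stayed on opposite sides, with 4874 against 1715 FPKM and 20.6 against 50.8.

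The 12 pairs of like length held both patterns, and they were singled out after their values were seen. On nscaf2818, over 444 bases, both partners were higher in hindwing buds, with 58.4 FPM in hindwing buds (53.8 to 63.0) against 46.3 in forewing buds (41.2 to 51.4) at the left locus (1323869 to 1330421). The right locus (1330866 to 1350363) had 131 FPM in hindwing buds (125 to 138) against 75.3 in forewing buds (68.9 to 81.8). On nscaf3058 the left locus (4043896 to 4098475) had 41.5 FPM in hindwing buds and 33.4 in forewing buds, and the right locus (4099357 to 4132165) 20.04 and 13.9 FPM. Both partners were higher in forewing buds on nscaf1898, where the left locus (12289122 to 12301529) had 36.2 FPM in hindwing buds and 46.8 in forewing buds and the right locus (12302115 to 12305739) 68.7 and 76.9 FPM. The same held on nscaf3032, with 69.7 FPM in hindwing buds and 79.0 in forewing buds at the left locus (880995 to 888907) and 147 and 159 FPM at the right locus (889339 to 892073).

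The 8 pairs of like length on opposite sides included the pair on nscaf2686 given above, whose left locus passed 2-fold. On nscaf2889, over 791 bases, the left locus (1386817 to 1388860) had 42.3 FPM in hindwing buds (39.7 to 44.9) against 59.2 in forewing buds (55.7 to 62.8). Its partner (1389652 to 1425580) had 85.4 FPM in hindwing buds (81.7 to 89.0) against 74.2 in forewing buds (70.3 to 78.0). On nscaf2902, over 463 bases, the left locus (6416501 to 6423069) had 115 FPM in hindwing buds against 144 in forewing buds, and the right locus (6423533 to 6424969) 38.2 against 28.4. On nscaf2822, over 196 bases, the left locus (2076063 to 2092363) had 276 FPM in hindwing buds against 327 in forewing buds, and the right locus (2092560 to 2104655) 12.6 against 9.62. In these 3 pairs the left locus was higher in forewing buds and the right locus in hindwing buds, and the same order was found in 7 of the 8 pairs. Left and right follow only the direction in which a scaffold is numbered. The count was not made for other pairs, and no meaning is given to it.

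**Figure D5:**
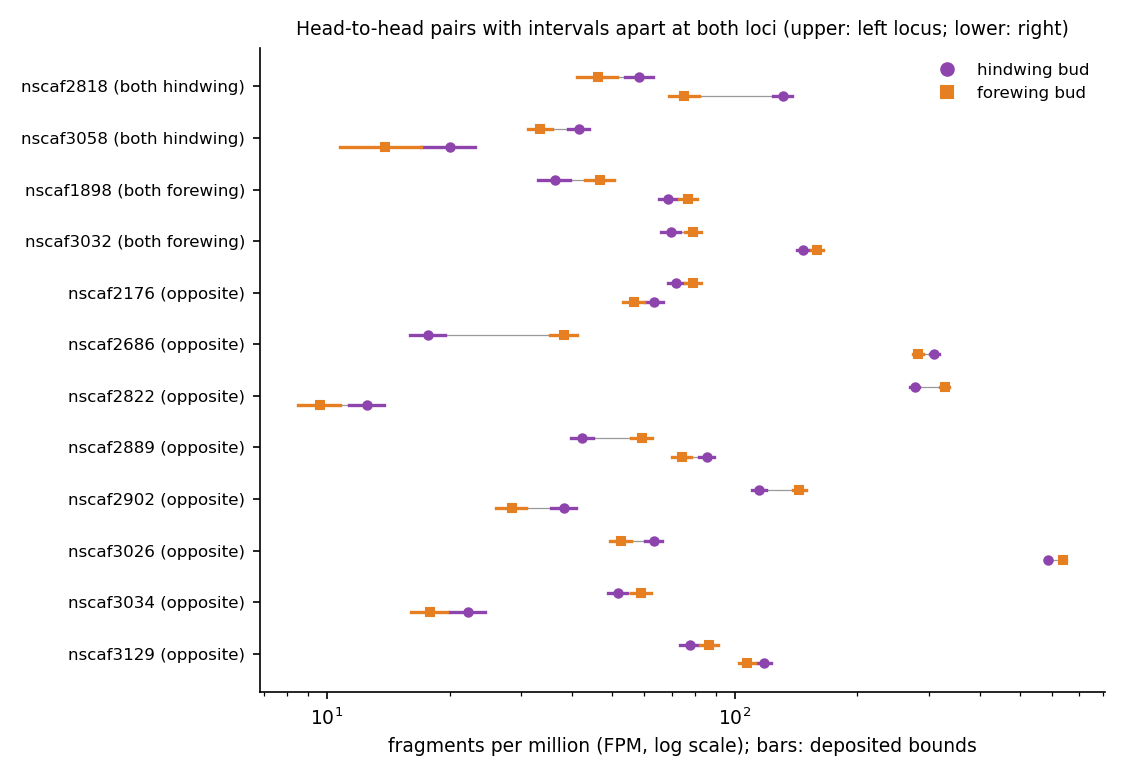
Fragments per 1000000 (horizontal axis, FPM, log scale) in hindwing buds (circles) and forewing buds (squares) at both loci of the 12 head-to-head pairs of like assembled length whose intervals were apart at both loci, named by scaffold, with bars for the deposited bounds scaled to FPM. In each pair the upper line is the left locus and the lower line the right locus, and 4 pairs lie on the same side at both loci while 8 lie on opposite sides.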

How the data were processed

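RNA was sequenced from 1 library of hindwing buds and 1 of forewing buds, each of 80 pooled buds, and per the labels the kit kept no strand information, primed with random hexamers and used 11 PCR cycles. By the study's methods, reads were mapped with TopHat and assembled with Cufflinks. Cufflinks 2.1.1, with Cuffdiff, is named in the submitters' processing notes. The deposited assemblies list, for each transcript, the exons, the FPKM and the bounds of its interval as the authors' Cufflinks run gave them for that library. The score column of the deposited files was not used. Fragments per 1000000 (FPM) were the interval midpoint times assembled length in kilobases, summed over a locus, with no rescaling between libraries. The log2 ratio used a pseudocount of 1 FPM and loci of at least 1 FPM in a library. Summing the bounds of transcripts widens an interval, and FPM moves with what was assembled into a locus.

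Depth was estimated as the number of fragments that made the bounds of lone single-exon transcripts whole. Of bounds below 30 fragments, 96.5% in the hindwing and 96.1% in the forewing library came out whole within 0.05. PCR copies cannot be told from separate molecules, so the intervals do not cover amplification error or differences between animals, and Wilson intervals at 95% count loci or pairs.

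The members, lists and measures were chosen with earlier results of these data known. The pairs named, all of at least 5 FPM in a library at both loci except those at the gap limit, were the 3 with the highest lower partner, the 3 narrowest, the 3 with the largest ratios on each side or on opposite sides, the 3 most unequal, all past 2-fold at both loci, and those nearest 1000 bases. Ratios on each side or on opposite sides were ranked by the smaller absolute log2 ratio of a pair's partners. Added after the data were seen were calls by intervals apart, calls on both measures or per length over all kept loci, shares among pairs that do not overlap, lengths of 2-fold loci, and the pairs named from these. No gene name or sequence is given, as the available gene table belongs to a different assembly and shares no identifier with the transcripts. The code was tested on simulated data. The tools were numpy 2.4.6, scipy 1.17.1, pandas 2.3.3 and matplotlib 3.10.9 under Python 3.11.15.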

Additional observations from a re-analysis of the deposited data

How the results depend on the processing

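The results were recomputed under 99 combinations of result and setting, of which 83 were classed as unchanged. That class was broad and took in sizeable shifts. Among loci of like assembled length, the correlation of ratios by FPM fell from 0.12 to 0.037 in tail-to-tail pairs. In head-to-head pairs it fell from 0.19 to 0.11. All 14 alternatives for the share that follows were also in this class. The share of head-to-head pairs with both ratios on the same side, reported as 58.1%, ranged from 53.4% to 58.3% over 14 alternatives. It was 53.4% by the midpoint per length, by deposited FPKM and where unstranded transcripts joined no spliced locus. These values are close to the 53.3% of head-to-head pairs with wider gaps, measured by FPM. With ratios centred on the median of all kept loci it was 55.6%. The correlation of ratios in head-to-head pairs changed with length, at -0.0125 by the interval midpoint per length and 0.00325 by deposited FPKM, and in same-strand pairs it was 0.0483 and 0.0408 by these measures and 0.38 among loci of like assembled length. The correlation in head-to-head pairs was 0.20 without the pairs of the 2 largest ratios, a setting added after the data were seen. In the pairs left out the partner was near 0. Kept were the pairs on nscaf2823 (log2 ratios 2.01 and 1.01) and on nscaf2865 with a gap of 980 bases (1.66 and 0.94). Both had unlike assembled lengths, and their part in the correlation was not tested. The share of head-to-head loci differing 2-fold was 9.86% by the midpoint, 11.1% by deposited FPKM and 0.691% among loci of like length. It was 5.62% where unstranded transcripts joined no spliced locus, with a median level of 16.6 FPKM, and 1.79% with a gap limit of 500 bases. That limit gave 168 pairs with a median gap of 263.5 bases, and a limit of 2000 bases gave 738 pairs with a median of 1015.5 bases, by construction. With the limit applied in each assembly alone the median gap was 450 bases. The causes of the other changes were not tested. No paired analysis was possible because each wing bud had 1 library, and no library could be left out. Depth limits the ratios of loci near 1 FPM, where 1 FPM is 43.5 hindwing or 37.2 forewing fragments.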
